A study of Mus musculus with 8 samples.

Results

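Genes whose products act directly against viruses were followed in mouse dendritic cells exposed to lipopolysaccharide (LPS), a bacterial cell wall component sensed by Toll-like receptor 4. They were chosen by name for their roles: Ifit1, Ifit2, Ifit3, Rsad2, Cmpk2, Isg20, Ifi44, Bst2, Ifitm3 and Samhd1. Earlier results of these data were known at the choice, so contrasts with all tested genes or probes are descriptive. These 10 genes had 13 probes on the array, out of 20887 genes named by 27509 probes, and all 10 were among the 12706 genes bright enough to be tested. Of the 10, 9 were higher in LPS-treated cells, by 1.74-fold for Ifitm3 to 47.7-fold for Ifi44, and 1, Samhd1, gave different answers from its 2 probes. The size for Ifi44 depended on the background correction.

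The LPS-treated samples (n = 4) were mature dendritic cells collected on day 7, after LPS at 50 ng/ml had been present overnight. The immature samples (n = 4) were collected on day 6 without LPS. Cells of both groups came from bone marrow of C57BL/6 females, grown for 6 days in IL-4 and 10 ng/ml of GM-CSF. Cells kept to day 7 without LPS were not analysed here, so LPS and the additional night of culture cannot be told apart. The labels do not say whether the replicates were separate animals or cultures, so the p-values measure the spread between these samples, which may be technical. Each sample was hybridised to its own single-colour array, and all 8 arrays shared 1 slide, with LPS samples in slide row 2 and immature samples in slide row 1, so slide row and treatment cannot be told apart either.

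Toll-like receptor 4 engages the adaptor TRIF, which leads through the kinase TBK1 and the factor IRF3 to interferon beta. Secreted interferon binds its receptor on the same and on neighbouring cells, and the kinases JAK1 and TYK2 then activate transcription factors that bind the interferon-stimulated response element in promoters. The genes switched on in this way encode proteins that block separate steps of viral infection, from entry and genome copying to translation and the release of new particles. In dendritic cells they belong to the maturation programme that LPS starts without any virus present.

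The stretches upstream of 4 of the genes are shown because each holds the core of that response element, searched on either strand as GAAA, any 2 bases and GAAA again, which reads as TTTC, any 2 bases and TTTC on the opposite one. Each stretch runs from base -170 to base -51 before an annotated transcription start, on the gene's own strand and 5′ to 3′. Sequences are from RefSeq build GRCm38.p6, with the matches in capitals. For Ifit3 that start belongs to a transcript beginning inside the gene, which is listed from base 34583119, so its stretch lies within the gene.
Ifit1, chr19:34640719-34640838, plus strand: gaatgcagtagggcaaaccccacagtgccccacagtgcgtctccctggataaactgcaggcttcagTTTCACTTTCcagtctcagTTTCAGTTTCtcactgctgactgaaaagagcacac
Ifit3, chr19:34583359-34583478, plus strand: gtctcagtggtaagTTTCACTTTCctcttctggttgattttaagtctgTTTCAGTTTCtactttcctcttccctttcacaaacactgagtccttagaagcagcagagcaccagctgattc
Rsad2, chr12:26456503-26456622, minus strand: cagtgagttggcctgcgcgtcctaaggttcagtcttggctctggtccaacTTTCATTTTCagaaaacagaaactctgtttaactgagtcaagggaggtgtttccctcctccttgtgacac
Bst2, chr8:71537523-71537642, minus strand: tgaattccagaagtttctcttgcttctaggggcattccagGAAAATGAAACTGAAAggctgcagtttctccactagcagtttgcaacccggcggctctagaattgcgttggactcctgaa
In Ifit1 and Ifit3 both matches lay on the strand opposite to the gene and did not overlap. The Rsad2 stretch held 1 match on that strand, and the run of capitals in Bst2 is a pair of overlapping matches on the gene's strand.

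Over windows of 300 bases, 250 before the start and 50 after it, 5 of the 10 genes had a match: Ifit1, Ifit3, Rsad2, Bst2 and Ifitm3, whose matches began 3 and 20 bases after the start. Among all 27025 genes with a window, 3.99% had one. No match to these letters was found in the windows of Ifit2, Cmpk2, Isg20, Ifi44 and Samhd1. The windows of Ifit2, Ifit3, Cmpk2 and Isg20 sat on transcript starts inside the listed gene. They therefore miss part or all of the 250 bases before the gene. A match is a stretch of letters and was not tested as a binding site, and genes without one were among the most changed, Ifi44 included.

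Values below are background-subtracted processed signals in arbitrary units, or log2 of that signal after subtraction of each array's 75th percentile, called scaled log2 signal. The 75th percentile itself was 392 to 418 on LPS arrays and 449 to 489.7 on immature arrays. All 13 probes were well above background on all 8 arrays and none was saturated. Levels of different probes cannot be set against each other, and the number of arrays limits the precision.

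**Figure D1:**
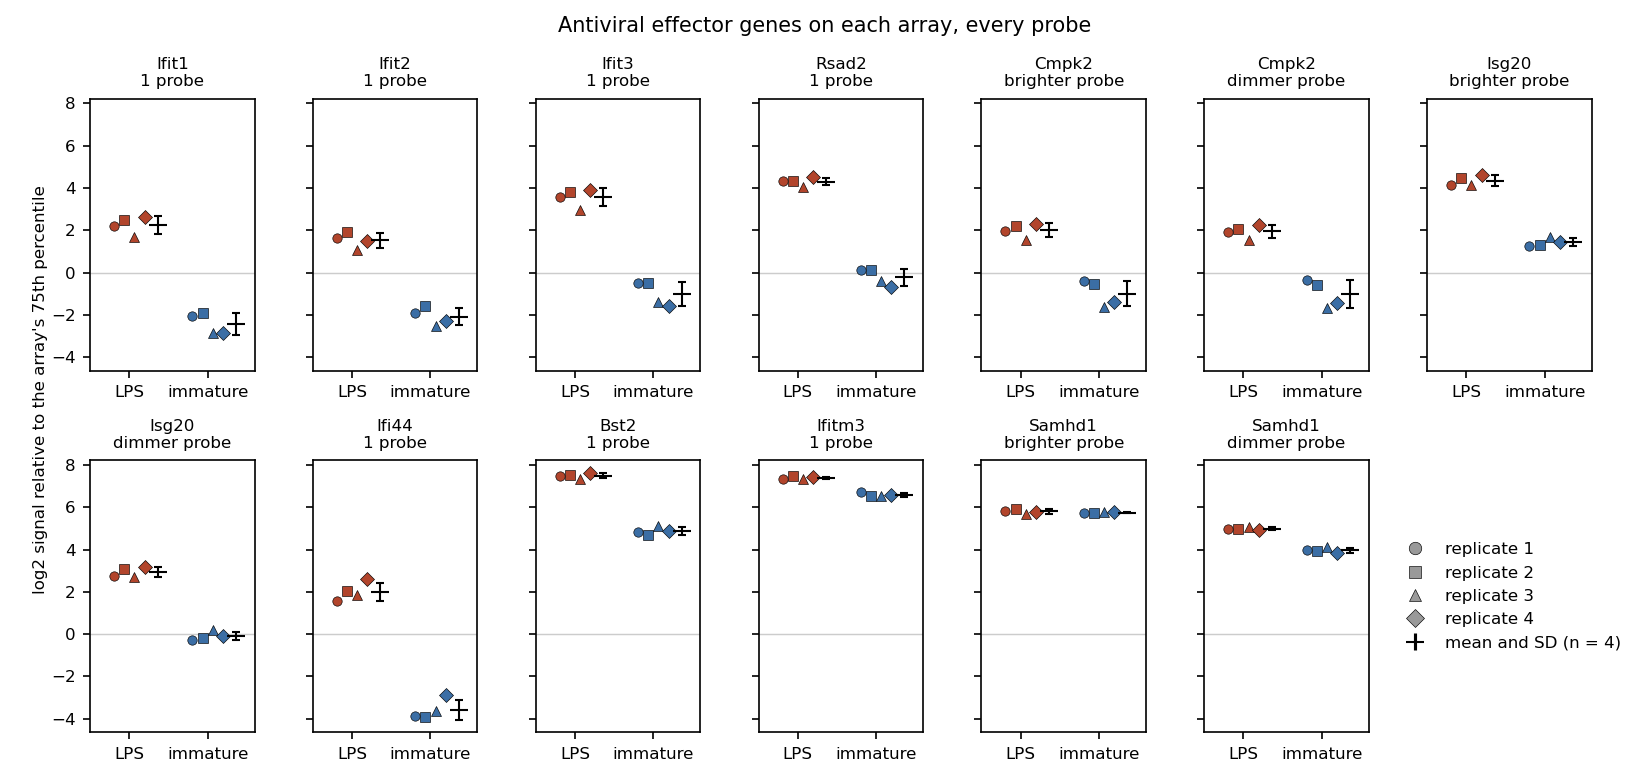
Scaled log2 signal (vertical axis) of each of the 13 probes in the LPS and immature groups, 1 symbol per array, with the mean and SD of 4 arrays beside them. The LPS symbols lie above all immature symbols in every panel except that of the brighter Samhd1 probe, where they overlap.

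At an adjusted p of 0.05 in limma's moderated test, 9 of the 10 genes were called higher with LPS and 0 lower, with 1 that did not pass; of all tested genes 31.4% were called higher, and 56.1% were called in either direction. Among the 10, 8 were also at least 2-fold higher, against 9.16% of all tested genes. The LPS and immature arrays did not overlap for 9 genes, against 30.1% of tested genes whose LPS arrays all lay above the immature ones. The median log2 fold change of the 10 genes was 3.29, and that of all tested genes was 0.06. As the 10 genes were chosen with earlier results of these data known, these contrasts are descriptive only. Because RNA was taken from whole cultures, more RNA per cell and more cells making it cannot be told apart.

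The Ifit proteins are built of tetratricopeptide repeats, and Ifit1 binds viral RNA whose cap lacks the methylation of host messages. Ifit1 gave signals of 1938, 2232, 1243 and 2552 in LPS replicates 1 to 4, against 119.9, 125, 63.0 and 62.0 in immature replicates 1 to 4. Even the lowest LPS array was far above the highest immature array, while within each group the arrays spread over about 1 log2 unit. The log2 fold change was 4.67 ± 0.29 (SE, as for every fold change below; limma adjusted p = 6.76e-06), or 25.4-fold, from a scaled log2 signal of 2.25 ± 0.42 with LPS and -2.42 ± 0.51 in immature cells (SD, n = 4 each).

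Ifit3, known in human cells to bind and stabilise IFIT1, had signals of 4877, 5638, 3051 and 6178 with LPS, against 346, 335, 173 and 152 in immature cells. The order of the arrays was close to that of Ifit1, with LPS replicate 3 lowest and immature replicates 3 and 4 below 1 and 2. Its log2 fold change was 4.55 ± 0.31 (limma adjusted p = 1.09e-05), a 23.5-fold difference. Ifit2, which in mice protects the nervous system against several neurotropic viruses, had 1305, 1484, 815 and 1161 with LPS, against 131, 159.6, 78.5 and 92.5 in immature cells. The groups did not overlap, and the change of 3.60 ± 0.24 on the log2 scale (limma adjusted p = 1.08e-05) was smaller than those of Ifit1 and Ifit3. With normexp background correction the log2 fold changes were 3.85 for Ifit1 and 2.90 for Ifit2, and both kept their call.

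The test of that difference used exact two-sided permutation of the arrays on the within-array difference between 2 genes, for 5 pairs, with p adjusted over the 5. With 4 arrays against 4 the smallest p it can give is 0.0286. The 97.1% intervals do not come from that permutation. Each runs from the smallest to the largest difference between any LPS array and any immature array. The log2 fold change of Ifit1 exceeded that of Ifit2 by 1.07 (97.1% interval 0.70 to 1.71; exact permutation p = 0.0286, adjusted p = 0.0357). That of Ifit2 was below that of Ifit3, with a difference of -0.96 (interval -1.70 to -0.50; exact permutation, adjusted p = 0.0357). The difference between Ifit1 and Ifit3 did not pass, at 0.11 (interval -0.05 to 0.25; exact permutation p = 0.114). The within-array difference between Ifit1 and Ifit3 varied by an SD of only 0.03 over the LPS arrays and 0.10 over the immature arrays. Under normexp background correction the difference in fold change between Ifit1 and Ifit3 turned round, at -0.37 with an exact permutation adjusted p of 0.0286.

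The 3 genes lie on chromosome 19 in a row of 6 Ifit genes, in the order Ifit2, Ifit3, Ifit1bl1, Ifit3b, Ifit1bl2 and Ifit1. Ifit1bl1 and Ifit3b, close copies of Ifit1 and Ifit3, changed by 4.33 ± 0.36 (limma adjusted p = 3.20e-05) and 4.02 ± 0.31 (limma adjusted p = 2.38e-05). For Ifit1bl1, above background on 3 of the 4 immature arrays, the difference in processed signals is given as at least 19.6-fold. This bound sets dim signals at the lowest level called well above background and holds for that background subtraction only. With normexp background correction the log2 fold changes were lower, at 2.98 for Ifit1bl1 and 2.74 for Ifit3b, and both kept their call. Ifit1bl2, between Ifit3b and Ifit1, went the other way: its scaled log2 signal was 0.54 ± 0.10 with LPS and 1.47 ± 0.36 in immature cells, a change of -0.93 ± 0.17 (limma adjusted p = 0.00185). Probe sequences were not used here, so signal that near-identical Ifit copies may share cannot be told apart.

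Rsad2 encodes viperin, a radical SAM enzyme that turns CTP into a nucleotide able to stop viral polymerases. It had signals of 8376, 8004, 6530.1 and 9460.2 with LPS, against 526, 513, 347 and 279 in immature cells. The LPS arrays were tight, with an SD of 0.18 on the log2 scale, and the immature arrays split into a higher pair, 1 and 2, and a lower pair, 3 and 4. This gave a log2 fold change of 4.53 ± 0.19 (limma adjusted p = 1.30e-06), or 23.1-fold.

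Cmpk2, a mitochondrial nucleotide kinase, is the neighbour of Rsad2 on chromosome 12, with 0 genes listed between them. Its signals were 1608, 1819.9, 1145 and 2037 with LPS, against 370.0, 330.4, 147 and 173 in immature cells. Again immature replicates 1 and 2 were the higher pair, and no immature array reached the LPS range. Its brighter probe changed by 2.98 ± 0.30 on the log2 scale (limma adjusted p = 8.75e-05), or 7.90-fold, and the second probe gave 2.95 ± 0.31 (limma adjusted p = 0.000141).

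Although they are neighbours, the pair differed in size of response. The log2 fold change of Rsad2 exceeded that of Cmpk2 by 1.54 (97.1% interval 0.90 to 2.0; exact permutation p = 0.0286, adjusted p = 0.0357), a 2.92-fold difference between the fold changes. Within arrays, Rsad2 stood 2.31 ± 0.17 above Cmpk2 with LPS and 0.77 ± 0.32 above it in immature cells (scaled log2 signal, SD, n = 4 each); these are differences between 2 probes, and only their shift between groups is read.

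**Figure D2:**
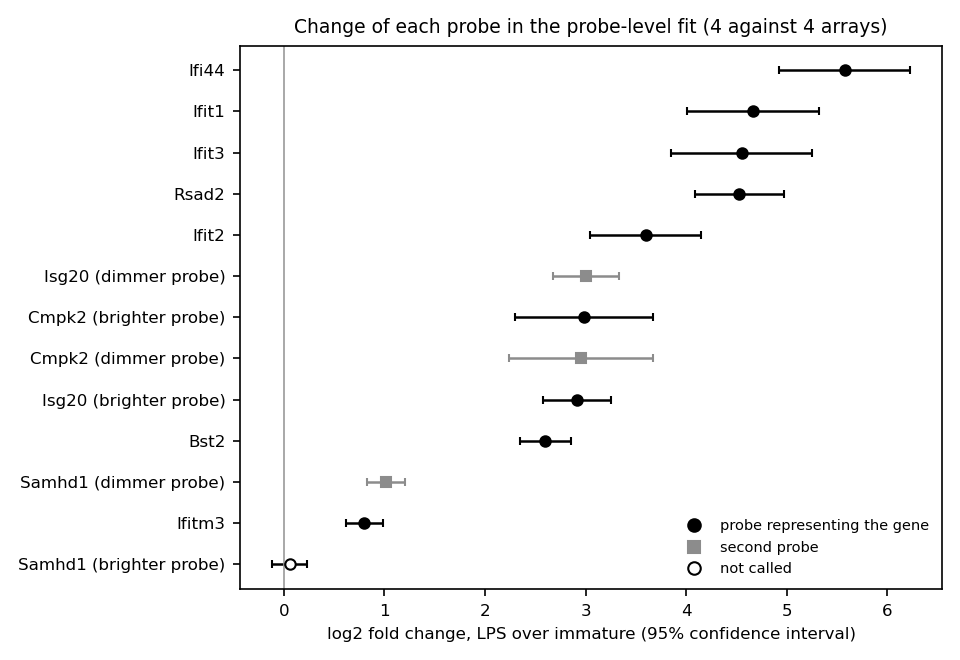
Log2 fold change, LPS over immature (horizontal axis), of each of the 13 probes in the fit to all probes, with 95% confidence intervals from 4 arrays per group. Ifi44 is at the top at 5.58, the probe pairs of Cmpk2 and Isg20 lie side by side, and the Samhd1 probes lie apart, at 1.02 and 0.06.

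Isg20 is an exonuclease that degrades single-stranded RNA. It had signals of 7200.4, 8867, 7030.2 and 10408 with LPS, against 1188, 1183, 1487 and 1247 in immature cells. The immature arrays lay close together and did not follow the order seen for the Ifit genes, Rsad2 and Cmpk2. LPS over immature was 2.91 ± 0.15 on the log2 scale (limma adjusted p = 2.36e-06), or 7.52-fold, and the second probe gave 3.01 ± 0.14 (limma adjusted p = 2.81e-06).

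Ifi44, an interferon-induced cytoplasmic protein, showed the largest fold change of the 10 genes and ranked 16 among all 12706 tested by increase. Its signals were 1208, 1619, 1400.0 and 2518 with LPS, against 33.5, 31.6, 36.4 and 61.4 in immature cells. Immature replicate 4 was the highest of its group and LPS replicate 4 the highest of its own. The log2 fold change was 5.58 ± 0.28 (limma adjusted p = 2.58e-06), or 47.7-fold. The immature signals were near the lowest level called well above background, 15.3 to 22.7 on those arrays, and with normexp background correction the log2 fold change was 4.15 (limma adjusted p = 6.95e-07). In that setting Ifit3, at 4.22, and Rsad2, at 4.21, exceeded Ifi44, so its first place depended on the background correction.

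The membrane proteins had bright probes in both groups. Bst2, also called tetherin, holds budding virus particles at the cell surface and marks plasmacytoid dendritic cells in unstimulated mice. Its signals were 72796, 73436, 63698 and 82844 with LPS, against 14074, 12376, 16024 and 13348 in immature cells. The groups were far apart relative to their spread, and the log2 fold change of 2.60 ± 0.11 (limma adjusted p = 1.17e-06), or 6.06-fold, had the smallest adjusted p of the 10. Of 7 tested markers of plasmacytoid dendritic cells, 0 were higher and 1 lower with LPS; their summed level relative to the 75th percentile was 128 to 140 on LPS arrays and 116 to 134 on immature arrays. Siglech, whose probe was the brightest of them and made up most of that sum, differed by 0.17 ± 0.07 (limma adjusted p = 0.0846). It passed without immature replicate 3, at 0.21 (limma adjusted p = 0.0231), and was at -0.04 without scaling. The part of these cells in the Bst2 difference was not tested.

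Ifitm3 blocks the fusion of virus particles with endosomal membranes. Its probe, spotted 10 times on each array, gave 67823, 69817, 62555 and 71429.9 with LPS, against 52004, 43689.6, 41749 and 43280.0 in immature cells. The spots of 1 array varied by a coefficient of variation of 1.38% to 3.37%, and all LPS arrays lay above all immature arrays. The change was 0.80 ± 0.08 on the log2 scale (limma adjusted p = 6.71e-05), or 1.74-fold, the smallest of the 9 that passed. The fold change of Bst2 exceeded that of Ifitm3 by 1.80 on the log2 scale (97.1% interval 1.41 to 2.10; exact permutation p = 0.0286, adjusted p = 0.0357).

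Samhd1 cleaves deoxynucleotide triphosphates and so limits reverse transcription, a restriction known from human myeloid cells infected with HIV. Its brighter probe gave 23094, 24331, 20206 and 23180.2 with LPS, against 25592, 25407, 25401 and 24234 in immature cells. After scaling the groups overlapped, at 5.81 ± 0.10 with LPS and 5.75 ± 0.04 in immature cells. Its log2 fold change was 0.06 ± 0.07 (95% interval -0.11 to 0.23; limma adjusted p = 0.534), and its sign depended on the scaling, at -0.11 with scaling to the array median and -0.15 with none.

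The dimmer Samhd1 probe gave 13014, 12670.0, 13112 and 12803 with LPS, against 7623, 7364, 8046 and 6476 in immature cells. Here the groups were far apart, with a log2 fold change of 1.02 ± 0.08 (limma adjusted p = 3.70e-05 over 25942 probes), or 2.03-fold. The brighter probe exceeded the dimmer one by 0.81 ± 0.13 on LPS arrays and by 1.77 ± 0.10 on immature arrays (scaled log2 signal, SD, n = 4 each), ranges that did not overlap. The within-array differences between the probes of Cmpk2 and of Isg20 shifted by only 0.03 and -0.10. The Samhd1 probes are listed under different RefSeq transcripts of the gene, and whether this bears on their disagreement was not tested. With the mean of its probes Samhd1 was called higher, at 0.54 ± 0.07 (limma adjusted p = 0.000298).

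Probe by probe, 12 of the 13 were called higher, against 26.1% of all tested probes, and 0 were called lower, against 23.7%. Disagreement of the Samhd1 kind was not rare on the array: of 3293 genes with more than 1 tested probe, 13.2% had 1 probe called higher and another that did not pass, and 4.68% had probes whose fold changes lay at least as far apart as those of Samhd1.

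Within a group, several of the genes were ordered alike over the arrays. LPS replicate 3 was the lowest LPS array for 8 of the 10 genes, all but Isg20 and Ifi44, and for 33.6% of all tested genes. LPS replicate 4 was the highest for 7 of the 10, and for 31.2% of all tested genes. Among immature arrays, replicates 1 and 2 were both above 3 and 4 for Ifit1, Ifit2, Ifit3, Rsad2 and Cmpk2, by means of 0.65 to 1.04 on the log2 scale.

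The opposite order, with both of that pair below, held for Isg20, Ifi44, Bst2 and Samhd1, by 0.05 to 0.63, and Ifitm3 had neither. Of all tested genes, 35.7% had the first order and 27.7% the second. All 9 calls held without immature replicates 1 and 2, and without 3 and 4.

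**Figure D3:**
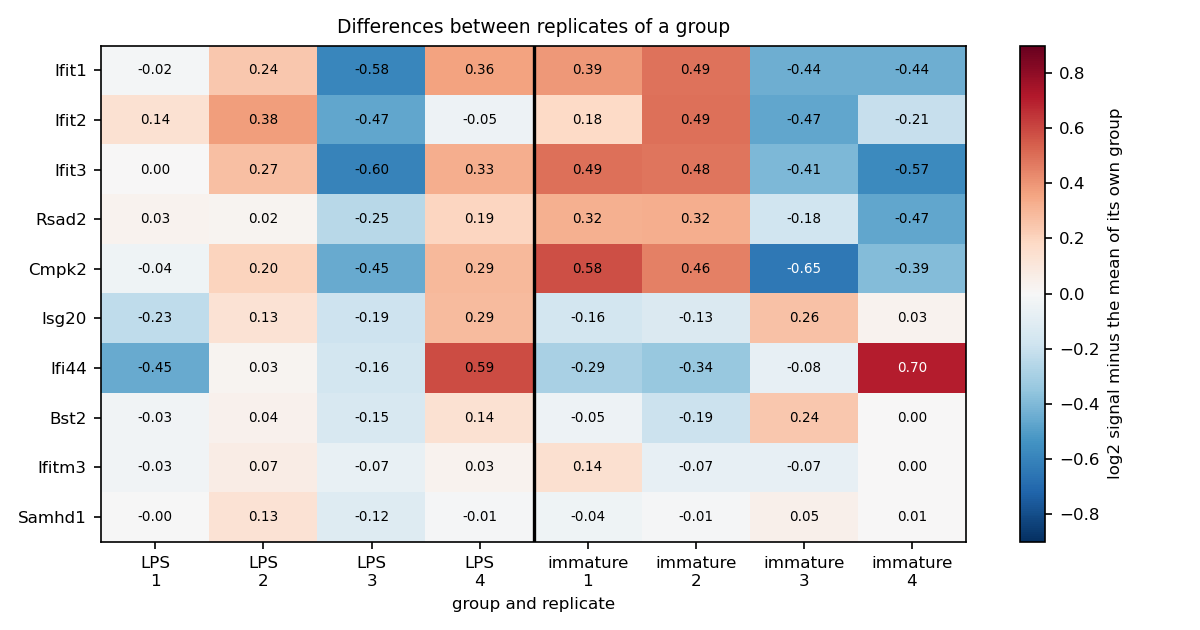
Scaled log2 signal minus the mean of the array's own group (colour and printed value) for each gene (rows) on each LPS array (left) and immature array (right). The LPS replicate 3 column is mostly negative, and the 5 top genes are positive in immature replicates 1 and 2 and negative in 3 and 4.

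Upstream of these genes, the interferons themselves were mostly dim. Of 26 listed interferon and receptor genes, 12 were tested; 7 were higher with LPS, 2 were lower and 3 did not pass, with a median log2 fold change of 0.37. Over all genes tested, 31.4% were called higher and 24.6% lower. Ifnb1, which encodes interferon beta, was above background on 4 LPS arrays and 0 immature arrays. It therefore entered the test through the LPS group only, and its p-values set LPS signal against background. In processed signals it was at least 3.20-fold higher (limma adjusted p = 0.000573), a bound that holds for that background subtraction only. With normexp background correction its log2 fold change was 0.64 (limma adjusted p = 0.000755), so the direction held and the size did not. When genes had to be above background on all 8 arrays, Ifnb1 was not tested and 6 of the list were higher. Ifng, Ifne and 7 alpha interferon genes, with Ifna2, Ifna4 and Ifna5 among them, were well above background on all 4 arrays of neither group, and 5 listed interferons had no matched probe.

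Both chains of the type I interferon receptor were higher, Ifnar2 by 1.22 ± 0.12 (limma adjusted p = 9.23e-05) and Ifnar1 by 0.54 ± 0.13 (limma adjusted p = 0.00709) on the log2 scale. Of the interferon gamma receptor chains, Ifngr2 was higher at 0.54 ± 0.09 (limma adjusted p = 0.000968) and Ifngr1 lower at -0.41 ± 0.14 (limma adjusted p = 0.0325). With no scaling only 4 listed interferons and receptors were called higher, with Ifnb1, Ifnar2 and Ifnlr1 among them. Ifnar1 and Ifngr2 therefore did not both keep their call in that setting. The Ifngr1 call was lost when any 1 of LPS replicates 1, 3 or 4 or immature replicate 4 was left out, with adjusted p-values of 0.0623 to 0.0744. Ifnlr1, the specific receptor chain for lambda interferons, was higher at 1.00 ± 0.21 (limma adjusted p = 0.00440), while the lambda interferon gene Ifnl3 was lower at -0.62 ± 0.11 (limma adjusted p = 0.00154).

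All 23 genes of interferon signal transduction and feedback were tested. Of these, 15 were higher, 1 was lower and 7 did not pass, with a median of 0.63. The shares of all tested genes called higher and lower were 31.4% and 24.6%. Irf7, the factor that widens alpha interferon production, had the largest change at 6.33 ± 0.11 (limma adjusted p = 2.82e-08). Irf9, the DNA-binding factor of the type I interferon response, was higher at 1.32 ± 0.12 (limma adjusted p = 4.26e-05). The feedback inhibitor Socs3 was higher at 2.17 ± 0.32 (limma adjusted p = 0.000645). Ptpn6, the phosphatase SHP-1, was the 1 gene called lower, at -0.50 ± 0.08 (limma adjusted p = 0.000930).

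Relatives of the 10 genes did not move as a block. Of 16 listed, 13 were tested. Of these, 3 were higher, 5 lower and 5 did not pass, with a median of -0.18. Over all tested genes 31.4% were higher and 24.6% lower, and with only 13 relatives the counts are descriptive. With scaling to the array median or without scaling 8 relatives were lower. The Ifitm family was split: Ifitm2 was higher by 0.73 ± 0.09 (limma adjusted p = 0.000230) and Ifitm6 lower at -1.91 ± 0.25 (limma adjusted p = 0.000337). Ifitm1 was at 7.89 with LPS and 8.08 in immature cells (scaled log2 signal), a difference that did not pass (limma adjusted p = 0.126). That outcome depended on the scaling, as Ifitm1 was among the 8 lower with scaling to the array median or without scaling.

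Hddc2, which carries an HD domain as Samhd1 does, was lower at -1.21 ± 0.07 (limma adjusted p = 5.26e-06). Dtymk, the thymidylate kinase, was lower at -0.91 ± 0.14 (limma adjusted p = 0.000886). Isg20l2, a nuclease related to Isg20, was lower at -0.60 ± 0.13 (limma adjusted p = 0.00416).

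Of 55 other antiviral effectors, 46 had a matched probe and all 46 were tested; 45 were higher with LPS and 1 was lower. Their median log2 fold change was 1.74, or 1.65 with genes that are dim in 1 group set at their bound. This list too was chosen with earlier results of these data known. Oasl1, which restrains Irf7 translation in mice, was higher by 5.47 ± 0.11 (limma adjusted p = 5.52e-08). Isg15, a ubiquitin-like modifier, was higher by 4.22 ± 0.18 (limma adjusted p = 1.30e-06), and Oasl2 by 4.05 ± 0.13 (limma adjusted p = 5.52e-07). The exception was Ifi27, at -0.60 ± 0.09 (limma adjusted p = 0.000919). In this list 18 of 35 tested genes with a promoter window held the response element core. Of the other lists, it was in 3 of 18 signal transduction genes, 3 of 11 interferons and receptors and 4 of 13 relatives, Ifit1bl2, which was lower, among them. Mx1, Mx2 and 7 others of the list were not analysed here.

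**Figure D4:**
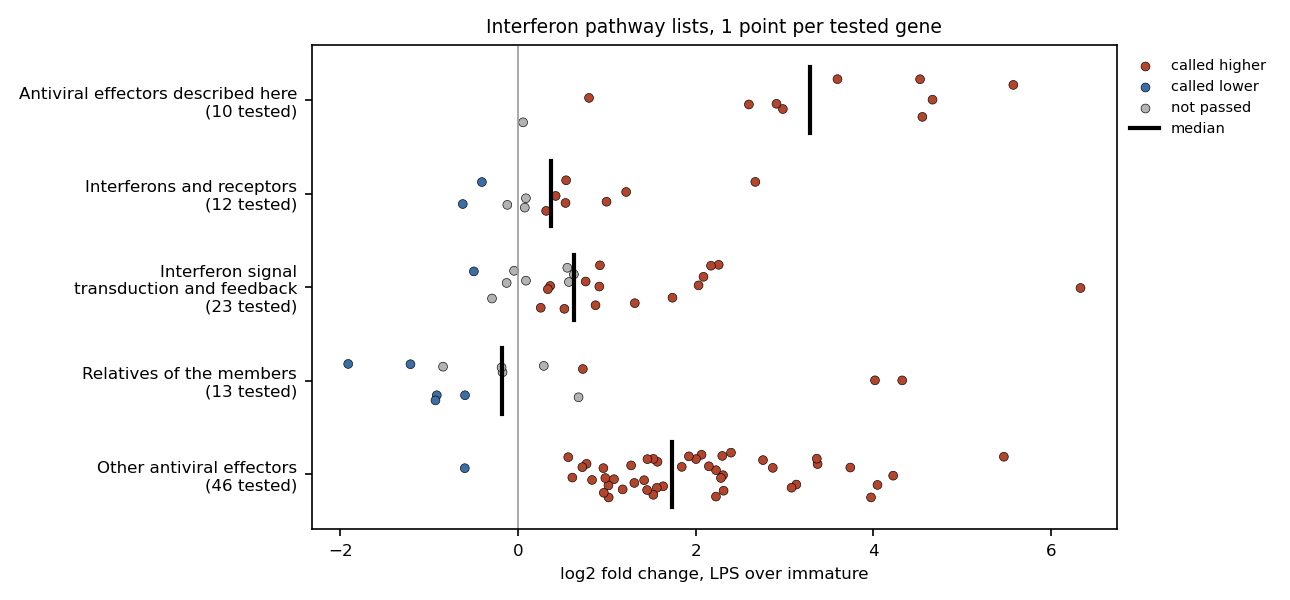
Log2 fold change, LPS over immature (horizontal axis), of each tested gene in the 10 genes described and in 4 lists of the interferon pathway (rows), coloured by call, with a black bar at each median. The medians are 3.29, 0.37, 0.63, -0.18 and 1.74 from the top, and points called lower are most frequent among the relatives.

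The genes whose centred profile over the 8 arrays was nearest to the median profile of the 10 were 1110032F04Rik, Bdh2, Apol9a, Ly6i and Rtp4. Their root mean square distances were 0.194 to 0.252 log2 units, and their log2 fold changes were 3.40 to 3.74. With normexp background correction 1110032F04Rik was at 2.12 and Bdh2 at 2.57. Of the 10 genes Ifit2 was nearest to that median, at 0.151, and Samhd1 was farthest, at 1.74.

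The cultures carried markers of dendritic cells on all arrays, with a summed level relative to the 75th percentile of 1072 to 1201 with LPS and 924 to 978 in immature cells, and 0 of 7 markers below background. Of these 7, 4 were higher and 2 lower with LPS: Ccr7, a chemokine receptor known to be induced on maturation, had a scaled log2 signal of 8.87 with LPS and 6.75 in immature cells, while Itgax changed by -0.99 and Cd74 by -0.46. Macrophage markers summed to 326 to 386 with LPS and 328 to 385 in immature cells. Neutrophil markers were lower with LPS for 6 of 6 tested, summing to 247 to 445 with LPS and 699.6 to 813 in immature cells, and their part in the differences above was not tested. B cell and plasma cell markers summed to 0.610 to 1.73 with LPS and 0.808 to 2.92 in immature cells, with Pax5 and Jchain below background throughout. T cell markers summed to 1.50 to 1.76 with LPS and 0.988 to 1.35 in immature cells, with Cd8b1 below background; of 3 tested, Lck was higher by 1.72, Cd3d was lower and Cd3e was at -0.58 in both groups (scaled log2 signal). NK cell markers summed to 0.421 to 0.515 with LPS and 0.642 to 0.689 in immature cells, with Ncr1, Gzma and Eomes below background.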

How the data were processed

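Per the labels' protocols, TRIzol-extracted total RNA was cleared of DNA with DNase I, and a Quick Amp kit was used for Cy3 labelling. The deposited intensities are processed signals from Agilent Feature Extraction 11.0.1.1, with background and spatial trends removed and no scaling across arrays, as the file headers give it. Besides these, the authors deposited raw median and background-subtracted intensities and other columns of flags, 0 or 1.

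From the deposited intensities, spots flagged as outliers (168 to 206 per LPS array, 122 to 144 per immature array) were left out, the 75th percentile of each array was subtracted on the log2 scale, and spots of a probe were averaged. Probes were named by transcript accession through a RefSeq gene table of build GRCm38.p6, used for names and order along the chromosome, and no other naming was used here. A gene was represented by its brightest probe and tested when well above background on all 4 arrays of a group. LPS and immature arrays were compared with limma 3.58.1 (two-sided, run in R 4.3.3 with statmod 1.5.0 and data.table at version 1.17.8), with Benjamini-Hochberg adjustment over all tested genes, after a trial on simulated data. Figures used matplotlib 3.10.9 in Python 3.11.15.

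The genes described and all lists were chosen with earlier results of these data known. Most genes outside the 10 were named by rule: from each list the 3 largest called changes in the commoner direction and 2 in the other, any tested interferon, receptor or relative, the 5 nearest profiles, and the brightest marker of each cell type or those below background; 1 gene so named is not reported here. Irf9, Ccr7, Itgax, Lck and Cd3d were named in addition, after their values were seen. Alternatives were the background correction (normexp with an offset of 50 on median spot intensities; mean intensities were not used here), the scaling, the filter, the probe of a gene, a replicate block and left-out arrays.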

Additional observations from a re-analysis of the deposited data

Results flagged for a closer look

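Among 86 groups of 4 arrays examined, 3 held a single array far from the other 3, where chance gives about 1 in 20. The scaled log2 signal of Ifit3b was 0.026 on LPS replicate 3, against 0.96 to 1.08 on the other LPS arrays. Ifi27 was at 5.21 on LPS replicate 4, against 4.95 to 4.97 on the other LPS arrays. Ifnar2 was at 3.80 on immature replicate 3, against 3.32 to 3.38 on the other immature arrays. None of the 10 antiviral effector genes had such an array.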

How the results depend on the processing

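The count of 9 genes higher and 0 lower, and the 9 genes without overlap between groups, held in the alternatives run on them, including each left-out array, with 2 exceptions: with the mean of the probes of a gene 10 were higher and 10 did not overlap, and with a 2-fold minimum 8 were higher. Over 21 alternatives the 9 genes kept their call, with log2 fold changes of 3.85 to 5.11 for Ifit1, 2.90 to 3.93 for Ifit2, 4.06 to 5.04 for Ifit3, 4.15 to 5.89 for Ifi44 and 0.59 to 0.85 for Ifitm3. The lowest values of Ifit1, Ifit2 and Ifi44 came with normexp, as did those of Ifnb1 (0.64), Ifit1bl1 (2.98) and Ifit3b (2.74). Normexp also turned Ifit1 minus Ifit3 to -0.37; the cause was not tested. Over all tested genes, 3995 were higher and 3127 lower (56.1% higher). The counts were 2631 and 4138 (38.9%) with median scaling, 2428 and 4445 (35.3%) with no scaling, 7645 and 3124 (71.0%) with no filter, 3627 and 3500 (50.9%) with quantile normalization, 3548 and 3560 (49.9%) with scaling to probes above background on all arrays, 6768 and 6155 by probe and 1164 and 1110 at 2-fold. Median scaling, no scaling and no filter moved the median of all genes by -0.17, -0.21 and 0.20. Without 1 array the counts were 3454 to 4285 higher and 2721 to 3619 lower. Interferons and receptors called higher numbered 4 with no scaling, 4 without immature replicates 1 and 2 (left out after seeing the data, as were 3 and 4) and 2 at 2-fold. Those called lower numbered 1 with the replicate block, with replicates 1 and 2 averaged and without immature replicates 3 and 4, 0 at 2-fold, and 1 to 2 without 1 array. Signal transduction genes called lower numbered 2 with normexp, quantile normalization and scaling to probes above background, 3 with median scaling, no scaling and without immature replicates 3 and 4, 0 at 2-fold, and 1 to 2 without 1 array (2 without immature replicate 3); 7 were higher at 2-fold. Relatives called lower numbered 8 with median scaling or none and 2 at 2-fold; 5 were higher with no filter and without immature replicates 3 and 4. Other effectors called lower numbered 0 at 2-fold. The replicate numbers were not taken as pairs: deviations of same-numbered arrays correlated at 0.19, 0.02, 0.05 and -0.10, and 3 of 8 arrays correlated best with their own number. The replicate block gave 3640 genes higher and 2973 lower and ended the Ifngr1 call (limma adjusted p = 0.0586) and no call among the 10 genes. Naming by accession alone is the setting used throughout and was not run separately. Pair differences have no test with fewer than 8 arrays. Depth of signal limits the dim immature values of Ifi44 and Ifit1bl1.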
